A study of Homo sapiens with 79 samples.

Results

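The RNA that co-purified with CTCF from K562 cells, a human erythroleukemia line, was compared with input RNA by fRIP-seq. In this assay living cells are lightly fixed with formaldehyde, the lysate is sheared, an antibody pulls down 1 protein with the RNA crosslinked to it, and that RNA is sequenced beside RNA from unselected lysate. The members were chosen by their column names as 3 CTCF libraries and the 3 libraries of input set 1, which is 6 of the 79 libraries of the series. The remaining libraries were 67 fRIPs of 23 other proteins and the 6 libraries of input sets 2 and 3. All cells were untreated K562, and the study's methods describe the 3 CTCF replicates as separate lysates taken on different dates. A pull-down with a nonspecific antibody was not analysed here, so RNA held by beads or antibody and RNA held by CTCF cannot be told apart. CTCF was pulled down with 1 commercial antibody. The 2 STAG2 libraries, whose pull-down enriched little RNA in bulk by the study's account, were compared for that reason. The STAG2 libraries were not equal to input, since 250 genes were called higher and 866 lower in them against the 9 inputs, and STAG2's own mRNA stood at 10952 and 8375 FPKM against 81.4 to 133 FPKM.

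CTCF is a DNA-binding protein with an array of zinc fingers and is best known for marking the borders of chromatin loops, where it stops the cohesin ring. Some of its zinc fingers also contact RNA, and a few noncoding RNAs have been described as partners. Cohesin is a ring of SMC1A, SMC3, RAD21 and a STAG protein, loaded by NIPBL and MAU2 and released by WAPAL.

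All values are FPKM, a gene's fragment count scaled to transcript length and library size. Differences are given as the difference of group means of log2(FPKM + 1), which understates the change of low genes. A gene was called when its Benjamini-Hochberg adjusted p from limma was under 0.05 and its change over 2-fold. From steps in the low values, depth was about 11200000 to 15800000 fragments in the CTCF libraries and about 20500000 to 22500000 in input set 1. Log2 levels of the 3 CTCF libraries correlated with each other at 0.968 to 0.972 and with input set 1 at 0.954 to 0.964 over 25442 tested genes. Of 11 erythroid and BCR-ABL1 markers 10 stood at 1 FPKM or more in all 6 libraries, while 6 of 10 markers of other cell types stayed under 1 FPKM in all of them and the highest, LYZ, reached 59.3 FPKM. The libraries did not share 1 state of globin expression. HBG2, a fetal globin, read 312, 449 and 2693 FPKM in CTCF libraries 1, 2 and 3, and 178, 901 and 944 FPKM in the input libraries, so that the spread within groups covered the difference between them and no globin was called. In bulk RNA, fewer cells of a kind and less RNA per cell cannot be told apart.

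Of 25442 genes, 102 were called higher (0.401%) and 357 lower (1.4%) against input set 1. mRNAs split nearly evenly, with 65 called higher and 57 lower of 13618 and a median difference of 0.07. lncRNAs had more lower than higher calls, with 8 higher and 131 lower of 5245 and a median of -0.15. Pseudogenes did the same, with 7 higher and 114 lower of 5247 and a median of -0.17. This excess of lower calls was not seen against STAG2 fRIP, where 164 lncRNAs were called higher and 100 lower. Over all genes 655 were higher and 403 lower there. Against the other 23 fRIPs 12 lncRNAs were higher and 18 lower. The lncRNA medians were 0.08 and -0.07 in these 2 comparisons, and the pseudogene medians 0.09 and -0.003. Of the 357 lower genes, 127 averaged under 5 FPKM in input set 1.

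The balance of the calls depended on scale. The CTCF libraries had lower medians than input set 1, and centring each library on the median of its genes moved all differences up by 0.23, giving 417 genes called higher and 98 lower. The higher calls then made up 81.0% of all calls, against 22.2% on the deposited scale. For mRNAs the centred counts were 330 higher and 9 lower, and for lncRNAs 29 higher and 31 lower. Pseudogenes kept an excess of lower calls with centring, at 28 higher and 39 lower, while over all genes the excess turned. Against all 9 inputs lower calls stayed the more numerous with centring, at 140 higher and 165 lower genes.

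Against all 9 inputs, 109 genes were called higher (0.428%) and 202 lower (0.794%), 311 in all. This was the lowest number for any of the 24 proteins, the next being CHD1 with 371. Input set 1 was taken as the reference because the authors' own pooled input values for CTCF lay nearest to it, with a median absolute log2 difference of 0.0983 against 0.324 and 0.321 for sets 2 and 3. With all 9 inputs in its place, 37 of the 102 higher and 113 of the 357 lower calls were kept. With sets 2 and 3 each used in turn as well, 26 higher and 61 lower genes were called every time, and 20 of those 26 and 28 of those 61 are mRNAs. In 1464 genes (5.75%) all 3 CTCF libraries lay above every input library, and in 1430 (5.62%) below.

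**Figure D1:**
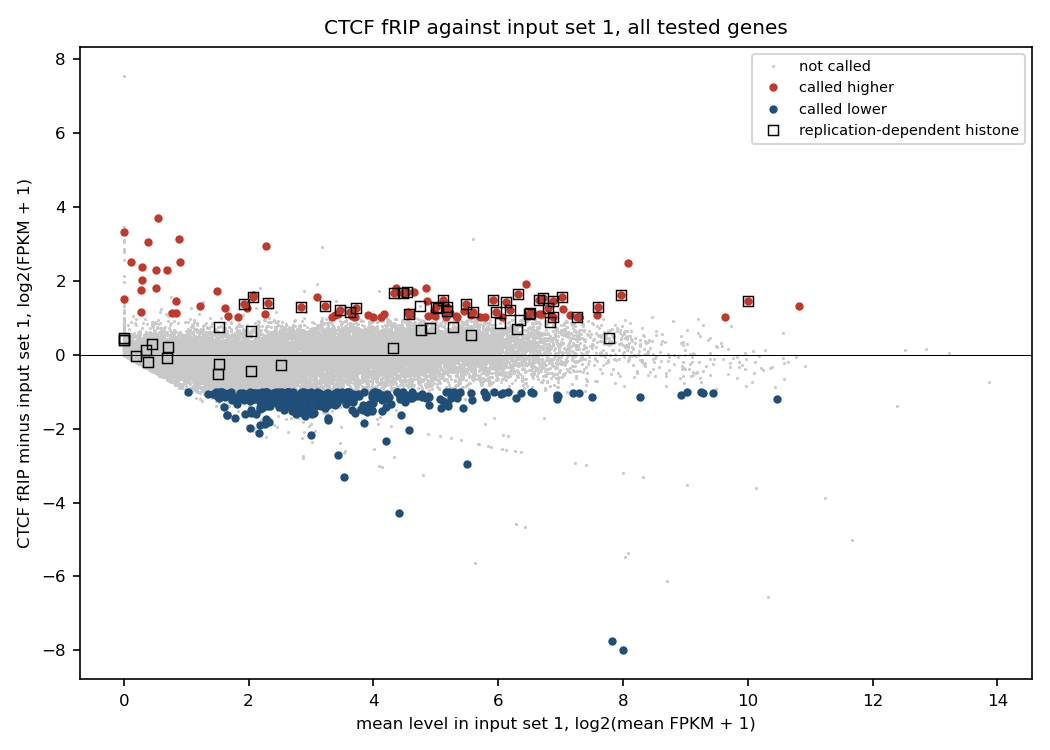
Each point is a tested gene, with its mean level in input set 1 on the x axis as log2 of mean FPKM + 1 and the CTCF minus input difference on the y axis in log2(FPKM + 1). Red and blue points are the 102 higher and 357 lower calls, grey points the other genes, and open squares the 62 tested replication-dependent histone genes, of which 35 are among the higher calls.

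Among mRNAs called higher, 38 of 64 with a matched transcript lay above every one of the 9 input libraries. PKD1 (ENSG00000008710.13; GRCh37 chr16:2138709-2185899, minus strand) encodes polycystin-1, a large membrane protein. PKD1 read 77.8, 68.8 and 86.4 FPKM in the CTCF libraries and 27.2, 27.2 and 29.4 FPKM in input set 1. Sets 2 and 3 ran from 20.2 to 25.2 FPKM and STAG2 fRIP read 24.6 and 27.0 FPKM, so CTCF fRIP stood clear of every one of them. Among the 24 proteins CTCF was not the highest for PKD1, since EZH2 averaged 141, CHD7 122 and CBP 99.8 FPKM against 77.7 for CTCF. The difference was 1.44 (SE 0.19, adjusted p = 3.54e-07 by limma) against set 1 and 1.64 against all 9 inputs. Of the 25-base words in PKD1 transcripts 49.0% also occur in other genes, most in the pseudogene PKD1P5, so part of its reads may belong to the copies.

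DMPK (chr19:46272967-46285810, minus strand), a muscle protein kinase, read 55.8, 54.5 and 43.9 FPKM against 24.0, 21.5 and 22.1 FPKM in input set 1, with 14.6 to 19.2 FPKM in the other inputs. Its difference was 1.15 (SE 0.23, adjusted p = 0.000319, limma), and CTCF was number 5 of the 24 proteins, CBP having the highest mean at 140 FPKM. PLXND1 (chr3:129274057-129325519, minus strand), a receptor for semaphorins, read 42.3, 33.5 and 34.7 FPKM against 22.4, 15.9 and 12.5 FPKM. PLXND1 also lay above all inputs and both STAG2 libraries (14.2 and 9.1 FPKM), with a difference of 1.10 (SE 0.25, adjusted p = 0.00146, limma), and was higher still in fRIP of CHD7 at 51.8 FPKM. NAPA, which recycles SNARE complexes in membrane fusion, read 71.6, 65.9 and 71.8 FPKM against 31.8, 29.4 and 30.3 FPKM. NAPA's difference of 1.17 from set 1 was 0.96 from all 9 inputs, where the call was lost.

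PSMC4, an ATPase of the proteasome, read 92.2, 89.5 and 112.5 FPKM against 39.5, 43.4 and 46.2 FPKM, a difference of 1.17 (adjusted p = 1.18e-06, limma) that was 0.71, and no longer called, against all 9 inputs. RBM42, an RNA-binding protein, differed by 1.11 from set 1 and by 0.53 from the 9 inputs, again without a call. MCM4, a subunit of the replication helicase on chromosome 8, averaged 315 FPKM in CTCF fRIP and 131, 157 and 153 FPKM in the 3 input sets. Among genes picked after their values were seen, LCP1 (plastin-2) averaged 314 against 141 FPKM, ACTN4 (an actin crosslinker) 315 against 156 FPKM, LMNA (lamin A/C) 237 against 115 FPKM and TGM2 (transglutaminase 2) 65.1 against 30.8 FPKM in set 1. Against all 9 inputs LCP1 (1.17) and TGM2 (1.23) were still called, while ACTN4 (0.90) and LMNA (0.85) fell under 2-fold.

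TPP1, a lysosomal peptidase, differed between libraries in both groups. It read 123, 57.9 and 64.6 FPKM in CTCF fRIP and 59.3, 29.0 and 31.0 FPKM in input set 1, so the lowest CTCF library fell just under the highest input library. The library numbered 1 was the highest in both groups, and each CTCF library lay above the input library of the same number. TPP1 nevertheless had the highest mean of the 24 proteins, and its difference was 1.02 (adjusted p = 0.0153, limma) against set 1, 1.57 against all 9 inputs and 1.96 against the mean of the other 23 fRIPs. The call against set 1 was lost without CTCF library 1 (0.68), input library 2 (0.83) or input library 3 (0.88).

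Several higher genes share much of their sequence with others. The annotation joins ARHGAP19 and SLIT1 into ARHGAP19-SLIT1, which read 16.2, 14.5 and 14.8 FPKM in CTCF fRIP and 0.0560 to 2.30 FPKM in the 9 inputs. ARHGAP19-SLIT1 differed by 3.13 (SE 0.45, adjusted p = 1.60e-06, limma) and shares 40.7% of its 25-base words with other genes. CHURC1-FNTB, also a joined gene, differed by 2.37 and shares 95.9%, chiefly with FNTB. RP11-343C2.9 and RP11-512M8.5 share 95.7% and 98.3% of their 25-base words with other genes, chiefly COG8 and VPS33A. ANKRD30BL, an ankyrin-repeat gene on chromosome 2, rose from 27.7 to 100 FPKM, or 1.80 against set 1 and 2.87 against the mean of the other 23 fRIPs (CHD1 was higher at 110 FPKM), and shares 55.4% of its words. PPIAP31, a processed pseudogene of cyclophilin A with 74.5% shared words, read 15.7, 14.2 and 24.7 FPKM against 0.29 to 0.65 FPKM in input set 1. Its levels in STAG2 fRIP were 12.8 and 21.8 FPKM, a difference of 0.07 from CTCF, so its level was also high in STAG2 fRIP.

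**Figure D2:**
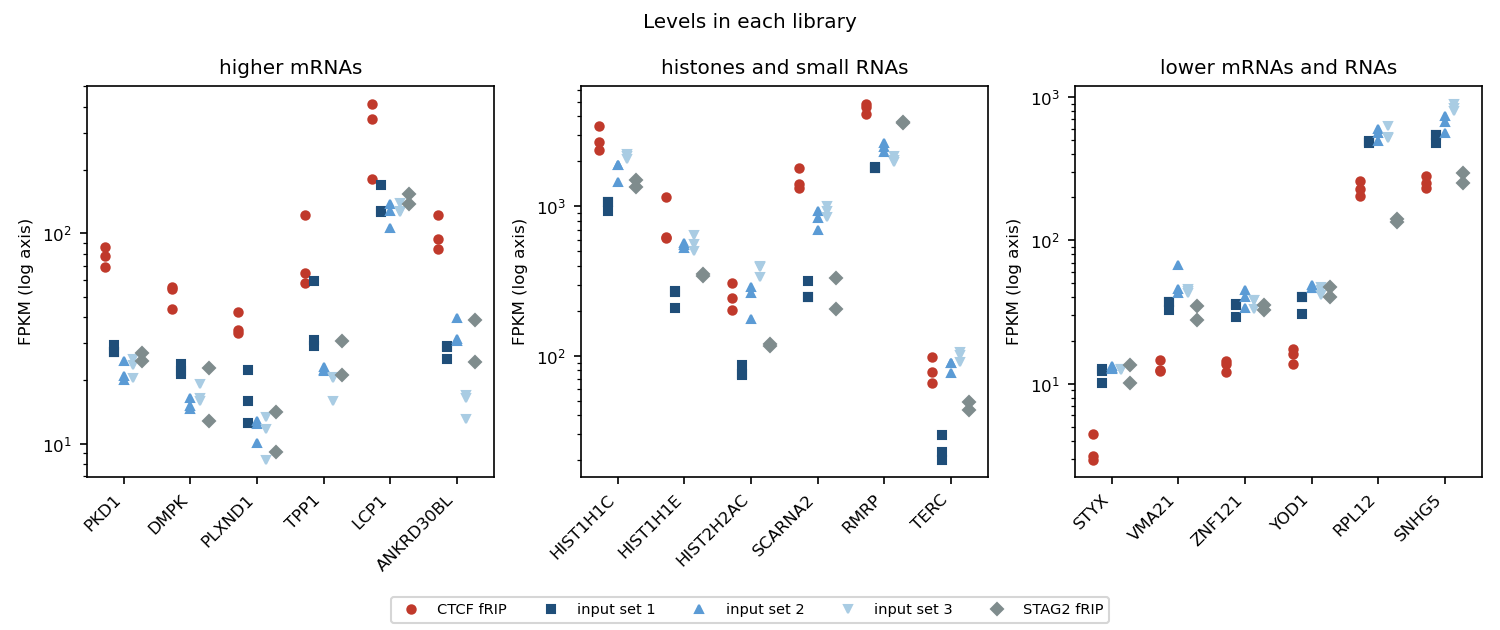
FPKM on a log axis for 18 genes in each CTCF fRIP library (red circles), each library of input sets 1 to 3 (dark to light blue squares and triangles) and each STAG2 fRIP library (grey diamonds). PKD1, DMPK and PLXND1 in CTCF fRIP lie above all inputs and STAG2, HIST2H2AC and TERC lie above input set 1, HIST2H2AC among sets 2 and 3 and TERC among or just below them, and STYX, VMA21, ZNF121 and YOD1 in CTCF fRIP lie below all inputs and STAG2.

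Of the lower mRNAs with a matched transcript, 47 of 56 lay below every one of the 9 inputs. STYX (ENSG00000198252.7; chr14:53196884-53241707, plus strand), a pseudophosphatase without catalytic activity, read 3.14, 2.95 and 4.45 FPKM in the CTCF libraries and 10.1 to 13.2 FPKM across all 9 inputs. Its difference was -1.50 (SE 0.19, adjusted p = 1.93e-07, limma) against set 1 and -1.51 against STAG2 fRIP, and CTCF had the lowest mean of all 24 proteins. VMA21 (chrX:150564987-150577836, plus strand), an assembly factor of the proton pump of lysosomes, read 12.3, 12.4 and 14.6 FPKM against 32.6, 37.2 and 37.4 FPKM. ZNF121, a zinc finger protein, read 12.1, 14.4 and 13.7 FPKM against 29.4, 35.2 and 36.0 FPKM. VMA21 differed from all 9 inputs by -1.65 and ZNF121 by -1.38.

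YOD1, a deubiquitinase, read 13.8, 16.1 and 17.5 FPKM against 30.8 to 49.1 FPKM in the 9 inputs and changed by -1.18 (adjusted p = 1.29e-06, limma). RYBP, a Polycomb partner, SPIN4, TWF1, an actin-binding protein, and NUDT4, a hydrolase of inositol pyrophosphates, fell by 1.08, 1.19, 1.12 and 1.21 on the log2 scale. NUDT4 shares 59.2% of its 25-base words with other genes, chiefly NUDT4B, and its 3 CTCF values ran from 34.7 to 74.1 FPKM. Genes of a few FPKM such as NECAB1 (2.26 against 7.49 FPKM), GNRHR (1.77 against 5.46 FPKM) and CD302 (2.23 against 6.46 FPKM) also fell against set 1, and GNRHR and CD302 differed by only -0.29 and -0.22 from the other 23 fRIPs. GNRHR (-0.83) and CD302 (-0.76) were not called against all 9 inputs. With libraries centred on their medians STYX, VMA21, ZNF121 and NECAB1 were still called lower against set 1, while YOD1, RYBP, SPIN4, TWF1, NUDT4, GNRHR and CD302 were not. CD302, FAM92A1 and AC090186.1 share 74.4%, 51.3% and 100.0% of their words with other genes.

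Short stretches are shown as examples of the words counted in whole transcripts. They were picked for holding those words, from the coding part of higher mRNAs and the 3' UTR of lower ones, so the contrast between the stretches is set by the choice and only the values for whole transcripts compare the mRNAs. Shown for 3 higher mRNAs are the 30 coding bases with the most CG dinucleotides, each within 1 exon of the most abundant coding transcript, with CG in capitals. They are read from GRCh37 on the minus strand at chr16:2140970-2140999 (PKD1), chr19:46285577-46285606 (DMPK) and chr19:48018147-48018176 (NAPA).
PKD1: gaccCGtttCGtgCGCGgcCGccCGCGcCG
DMPK: cagcCGaggtgCGgctgaggCGgctccagc
NAPA: gCGgaggCGatggCGctgttggcCGaggCG
Their transcripts hold 70.9, 65.8 and 42.1 CG per kb and 67.0%, 64.8% and 57.9% GC. The transcripts used for the higher mRNAs PLXND1 and TPP1, not shown, hold 49.2 and 17.2 CG per kb and 55.1% and 57.3% GC. They are short models of 691 and 464 bases, against 14140 for PKD1, and the TPP1 model is annotated for nonsense-mediated decay. Their values describe these short models only, of which that of TPP1 had fewer CG per kb than the 3 shown. Shown for 4 lower mRNAs are 30 bases of the 3' UTR around an AUUUA, the pentamer found in AU-rich elements of unstable mRNAs, in capitals and written with T. They lie at chr14:53238130-53238159 on the plus strand (STYX), chrX:150576073-150576102 on the plus strand (VMA21), chr19:9672185-9672214 on the minus strand (ZNF121) and chr1:207220216-207220245 on the minus strand (YOD1).
STYX: ttcatacttgaaATTTAtttgtatgatata
VMA21: tccaaactactgATTTAaccctATTTAcgg
ZNF121: ttatccttattcATTTATTTAcccATTTAc
YOD1: cgtgcaacaaatATTTAttgagtaATTTAt
These transcripts are 36.0%, 37.2%, 39.8% and 37.1% GC and hold 15, 16, 12 and 18 AUUUA.

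Over 13579 tested mRNAs with a matched transcript, GC content of the transcript most abundant in input correlated with the CTCF change at a Spearman rho of 0.51. The same value was 0.51 against all 9 inputs, 0.38 against STAG2 fRIP and 0.44 against the other 23 fRIPs. The transcript could be of any annotated type. For PKD1 it was a retained intron of 1140 bases, not the coding transcript used above. With GC content averaged over isoforms by their input level, rho against set 1 was 0.51 as well. Genes are not independent replicates, so the correlation is a description. In the 3 CTCF libraries taken alone rho was 0.46, 0.50 and 0.33, and in the input libraries, each against the other 2 of set 1, it was 0.22, -0.20 and -0.14. Base composition thus also varied between libraries of 1 input set, and its part in the CTCF values was not tested.

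The lowest quintile of GC, up to 41.0%, had a median difference of -0.19, with 0 of 2715 mRNAs called higher and 39 lower (1.44%). The highest quintile, from 58.6%, had a median of 0.31, with 24 of 2716 called higher (0.884%) and 0 lower. The medians of the quintiles between them were -0.05, 0.05 and 0.18. Among the 24 proteins the rho of GC with the change from all 9 inputs ran from -0.56 for RBBP5 to 0.51 for CTCF, with CBP next at 0.47, HNRNPH1 at 0.36 and STAG2 at 0.04.

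**Figure D3:**
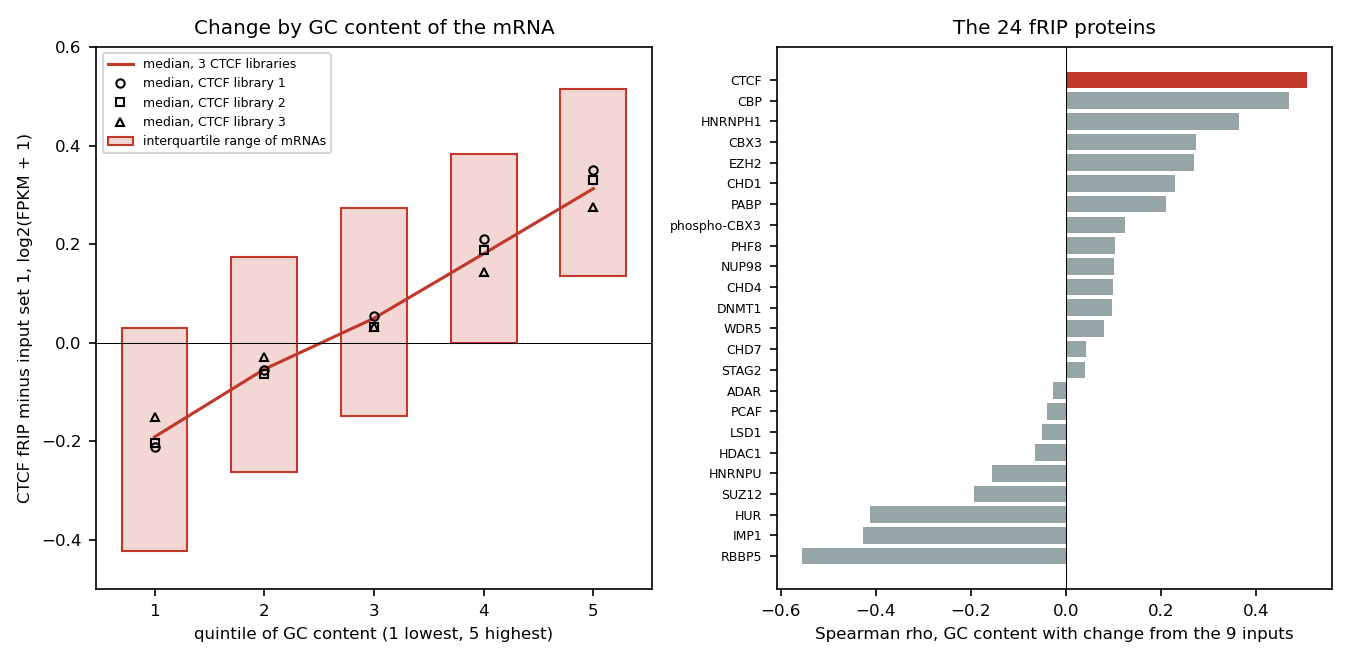
Left, change of mRNAs in CTCF fRIP from input set 1 in log2(FPKM + 1) by quintile of transcript GC content, with the interquartile range of mRNAs as bars, the median as a red line and the median of each CTCF library as a symbol; medians climb from -0.19 to 0.31 in the 3 libraries together. Right, Spearman rho of GC content with the change from the 9 inputs for each of the 24 proteins, CTCF (red) having the highest at 0.51.

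GC content of the coding part and of the 3' UTR gave a rho of 0.43 and 0.44, and that of the 5' UTR gave 0.16. AUUUA per kb gave -0.38, and UUUUAAAA, another AU-rich word, gave -0.23. Within quintiles of GC content the rho of AUUUA lay between -0.08 and 0.04. UUUUAAAA occurred in 0 of the 64 higher and 29 of the 56 lower mRNAs (51.8%), against 29.2% of all mRNAs. Among mRNAs beyond all 9 input libraries it occurred in 0 of 38 higher and 27 of 47 lower ones (57.4%). The lower mRNAs had a median transcript of 2961 bases and the higher ones, which include short histone mRNAs, 1222, while length gave a rho of -0.06 over all mRNAs.

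Median differences of mRNAs were 0.23 on chromosome 22, 0.20 on 16 and 19 and 0.17 on 17, and were -0.05 on 4 and 18, -0.09 on 13 and -0.38 over the 13 mRNAs of the mitochondrial genome. Chromosome 19 held 13 of the 64 higher mRNAs (20.3%) and 8.37% of all mRNAs, while chromosome 6, which carries the large histone cluster, held 15, or 2.19% of its 685 mRNAs against 1.14% of the 1137 on chromosome 19. A core of the CTCF recognition word, read as CCNC, any base, AGG, any base and GGC on either strand, was looked for in RefSeq promoters (GRCh38.p14, 250 bases before to 50 after each start). It stood in 1 of 50 matched promoters of higher mRNAs (2.00%), 0 of 42 of lower mRNAs and 2.22% of those of all tested mRNAs. The single match, shown because it is the only one, is in the promoter of EHD2, a membrane-remodelling ATPase, on the plus strand at chr19:47713303-47713332 with the word in capitals.
EHD2: ccccactccCCACAAGGGGGCgccagaggc
EHD2 averaged 21.4 FPKM in CTCF fRIP and 9.51 FPKM in input set 1, a difference of 1.08 that was 1.05 against all 9 inputs.

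Replication-dependent histone mRNAs, which end in a stem-loop in place of a poly(A) tail, made up 35 of the 102 higher genes against input set 1. Of 62 tested, these 35 were called higher (102 of all 25442 genes were, 0.401%) and 0 lower, and the median difference of the 62 was 1.15 against -0.04 for all genes. HIST1H1C, a linker histone, read 2698, 2383 and 3425 FPKM against 938, 1068 and 1078 FPKM. HIST1H1E read 621, 611 and 1148 FPKM against 208, 273 and 268 FPKM, and HIST2H2AC read 306, 202 and 245 FPKM against 86.8, 75.7 and 74.9 FPKM. Input set 1 was low for these genes. All 35 had higher means in sets 2 and 3 than in set 1, and 29 of them had a higher mean in set 3 than in CTCF fRIP.

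Summed over the list, set 1 held 3706 to 4139 FPKM, set 2 8936 to 9920, set 3 11268 to 12055, CTCF 7481 to 12482 and STAG2 5309 and 5438 FPKM. Against all 9 inputs the median was 0.09 and 0 histones were called by limma, with 7 higher at an adjusted p under 0.05 without the fold limit, which 7.66% of all genes were. Among these 7 were the linker histones HIST1H1C at 0.84 (adjusted p = 0.000144, limma), HIST1H1E at 0.83 and HIST1H1B at 0.82. HIST2H2AC, HIST2H2AB and HIST1H4J changed by 0.36, 0.35 and 0.35 against the 9 inputs. Against fRIPs of other proteins 19 of the 62 were higher than the mean of the other 23 fRIPs, where 0.711% of all genes were, and 17 were higher than STAG2 fRIP, where 2.57% were.

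Of 6 RNAs of Pol III or stable structure 2 were called higher, RMRP and TERC, and RPPH1 lower, where 0.401% and 1.4% of all genes were. In the comparison with all 9 inputs 1 was higher and 1 lower, where 0.428% and 0.794% of all genes were. SCARNA2, a guide RNA of Cajal bodies on chromosome 1, read 1800, 1402 and 1329 FPKM against 319, 247 and 247 FPKM in set 1. It was also above sets 2 and 3 (692 to 1006 FPKM) and STAG2 fRIP (205 and 331 FPKM), a difference of 2.47 (SE 0.22, adjusted p = 9.12e-12, limma) from set 1. SCARNA2 was not called against set 2 (0.88) or set 3 (0.70) alone, and CTCF was number 6 of the 24 proteins, far under RBBP5 at 10499 FPKM. RMRP, the RNA of RNase MRP, read 4857, 4124 and 4642 FPKM against 1802, 1794 and 1823 FPKM, and 1981 to 2642 FPKM in the other inputs. CTCF had the highest RMRP mean of the 24 proteins at 4541 FPKM, just above CHD1 at 4402 FPKM and 1.99 above the mean of the other 23 (adjusted p = 1.16e-17, limma), yet STAG2 fRIP at 3693 and 3597 FPKM came near it, with a difference of 0.31 (adjusted p = 0.325, limma). RPPH1, the RNA of RNase P, went the other way and fell by 1.19, from 1422 to 631 FPKM, a call lost on the centred scale. FPKM of RNAs this short is sensitive to the assumed fragment size.

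TERC, the telomerase RNA, was called higher against set 1 but not against all 9 inputs. Its template for the telomere repeat is shown to identify it, in capitals, at chr3:169482783-169482812 on the minus strand.
TERC: attttttgtCTAACCCTAACtgagaagggc
TERC read 99.0, 78.1 and 65.4 FPKM in CTCF fRIP, 29.6, 20.2 and 22.6 FPKM in set 1 and 77.3 to 107 FPKM in sets 2 and 3. The difference was 1.70 (adjusted p = 6.1e-07, limma) against set 1 and 0.43 (adjusted p = 0.123) against all 9. MIR663A and LINC00273, named after their values were seen, differed by 1.90 and 1.80 from set 1 and by 0.18 each from all 9.

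Of 17 nuclear and X-linked lncRNAs 16 had a difference below 0, 2 were called lower and 0 higher, and the median was -0.66 (-0.58 against all 9 inputs). Of all genes 1.4% were called lower. Both calls were lost when libraries were centred, where the median of the list was -0.43. CRNDE read 22.9, 30.2 and 21.8 FPKM against 54.0, 54.8 and 55.9 FPKM, and MIR17HG, the host of the miR-17 cluster, read 26.2, 33.5 and 35.2 FPKM against 58.5, 72.0 and 68.4 FPKM. Against all 9 inputs CRNDE was called at -1.04 and MIR17HG was not, at -0.94. MALAT1, a speckle RNA, averaged 2125 against 5367 FPKM, but its spread across the series gave an SE of 1.31 for a difference of -1.38 (adjusted p = 0.602, limma). MALAT1 shares 75.4% of its words, chiefly with its antisense gene TALAM1. NEAT1, the scaffold of paraspeckles, differed by -0.87 (adjusted p = 0.0179, limma) from set 1 and by -0.45 (adjusted p = 0.155) from all 9 inputs.

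Of 16 snoRNA hosts 2 were called lower, SNHG6 (81.8 against 181 FPKM) and SNHG5 (256 against 520 FPKM), and the median was -0.53. On the centred scale neither was called, the median was -0.30 and 0.385% of all genes were lower, against 1.4% on the deposited scale. Against all 9 inputs 5 were called lower where 0.794% of all genes were, with SNHG6 at -1.39 and SNHG5 at -1.36, and centring also gave 5. The lower lncRNAs named by size of change include ATP1B3-AS1 (1.45 against 6.50 FPKM), MYB-AS1 (6.40 against 20.7 FPKM), SOS1-IT1 (1.73 against 7.29 FPKM) and AF127577.10 (4.62 against 14.8 FPKM). SOS1-IT1 and AF127577.10 share 95.4% and 96.1% of their words with other genes, chiefly SOS1 and NRIP1. The library kit does not mark strand, so reads of the antisense MYB-AS1 and of MYB cannot be told apart.

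Of 7 RNAs described as partners of CTCF 5 were tested, and 0 were called against set 1. WRAP53 was the highest at 11.2, 10.5 and 11.1 FPKM against 6.14, 6.36 and 5.77 FPKM, a difference of 0.75 (adjusted p = 0.000459, limma) that is under 2-fold. SRA1 differed by 0.21 (adjusted p = 0.316) and JPX, an X-linked lncRNA, by -0.42 (adjusted p = 0.152), neither past the limma threshold. XIST differed by -0.85 against set 1 and by -0.31 against all 9 inputs. H19, an imprinted lncRNA whose locus is a classic site of CTCF binding on DNA, read 0.683, 1.68 and 3.40 FPKM in CTCF fRIP. Input set 1 read 3.29, 7.03 and 6.68 FPKM, overlapping it, while sets 2 and 3 read 16.4 to 39.5 FPKM and STAG2 34.7 and 24.7 FPKM. H19 thus differed by -1.25 (adjusted p = 0.118, limma) from set 1 and by -2.55 (adjusted p = 1.05e-05, limma) from all 9.

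The mRNA of CTCF itself was not called. It read 24.4, 17.6 and 27.1 FPKM in CTCF fRIP and 16.5, 17.4 and 16.9 FPKM in input set 1, a difference of 0.40 (SE 0.23, adjusted p = 0.31, limma). All 3 CTCF libraries lay above all 3 inputs of set 1 (exact permutation p = 0.1, the smallest possible with 3 against 3) but not above set 2, which reached 26.0 FPKM. Its main coding isoform averaged 21.8 against 15.5 FPKM (0.45, adjusted p = 0.356, limma).

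Of 16 cohesin and CTCF genes 0 were called in either direction, with a median of -0.03. SMC1A came closest, at 187, 165 and 195 FPKM against 92.1, 91.8 and 101 FPKM, a difference of 0.93 (SE 0.15, adjusted p = 8.86e-06, limma). SMC1A was called higher with centred libraries (1.16, adjusted p = 7.9e-06, limma) and against set 2 alone (1.05), but not against set 3 (0.70) or all 9 inputs (0.89). The acetyltransferases of the ring moved apart, ESCO2 by 0.68 (adjusted p = 0.0153) and ESCO1 by -0.73 (adjusted p = 4.22e-05), and the loader MAU2 differed by 0.37 (adjusted p = 0.0389), all by limma and under 2-fold. The other cohesin genes, among them SMC3 (0.41), STAG2 (0.25), RAD21 (-0.10), NIPBL (-0.01) and WAPAL (-0.04), did not pass the threshold. Of 23 genes for proteins that partner with CTCF, 0 were called and 17 had a difference above 0. Differences above 0 were common, since the median was 0.07 over all mRNAs and 0.18 in the quintile most abundant in input.

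Among lists of cellular machinery few members were called, and the number of higher calls rose with centring, where 1.64% of all genes were called higher in place of 0.401%. The proteasome had 2 of 38 higher (PSMC4 and PSMC2) and a median of 0.53, with 36 of 38 above 0, but a median of 0.19 and 0 called against all 9 inputs. Centring gave 8 proteasome genes higher against set 1. Chaperones and endoplasmic reticulum folding proteins had medians of 0.53 and 0.45 with 0 called, 18 of 19 and 21 of 22 above 0, and 0.25 and 0.30 against all 9. Centring gave 2 higher calls in each of these lists. Beside these counts above 0, the median over all mRNAs was itself above 0, at 0.07. Lysosomal proteins had 1 of 24 called, TPP1, and a median of 0.27, with 2 called on the centred scale. Nuclear-encoded respiratory chain genes had a median of 0.27 that turned to -0.10 against all 9, and 0 called on the deposited scale but 6 higher with centring.

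Cytosolic ribosomal protein mRNAs had 3 of 85 called lower (3.53%, against 1.4% of all genes): RPL39 (138 against 307 FPKM), RPL12 (230 against 487 FPKM) and RPS29 (297 against 606 FPKM). None of the 3 calls, nor those of MT-ND2 and SLC18A2, held against set 1 with centred libraries, where the ribosomal median was -0.03, while against all 9 inputs 6 ribosomal protein mRNAs were lower with or without centring (0.794% of all genes were, without it). Their median was -0.26 against set 1, -0.47 against all 9 and 0.59 against STAG2 fRIP, so the CTCF median lay between input and STAG2 fRIP. Of 11 mitochondrially encoded genes on the list MT-ND2 was called lower (56.7 against 123 FPKM), and 63.7% of its words are shared. The list had medians of -0.17 against set 1 and 1.24 against the other 23 fRIPs. It is not the full set of 13 mRNAs of the mitochondrial genome, whose median against set 1 was -0.38. Zinc finger genes of the ZNF family, whose mRNAs encode the same kind of domain as CTCF, had 2 higher (0.437%) and 1 lower (0.218%) of 458 and a median of -0.12. That share of higher calls is near the 0.401% of all genes. Globins, HOX, protocadherin, imprinted, integrin, nucleoporin, SR protein, hnRNP, translation factor, DNA methylation, cholesterol, erythroid factor, immediate early and centrosome or kinesin lists had 0 called, and solute carriers had 1 of 223 (SLC18A2, lower). The translation factor, DNA methylation, cholesterol, erythroid factor, immediate early and centrosome or kinesin lists had 1 higher call each with centring, and the ZNF genes had 6.

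**Figure D4:**
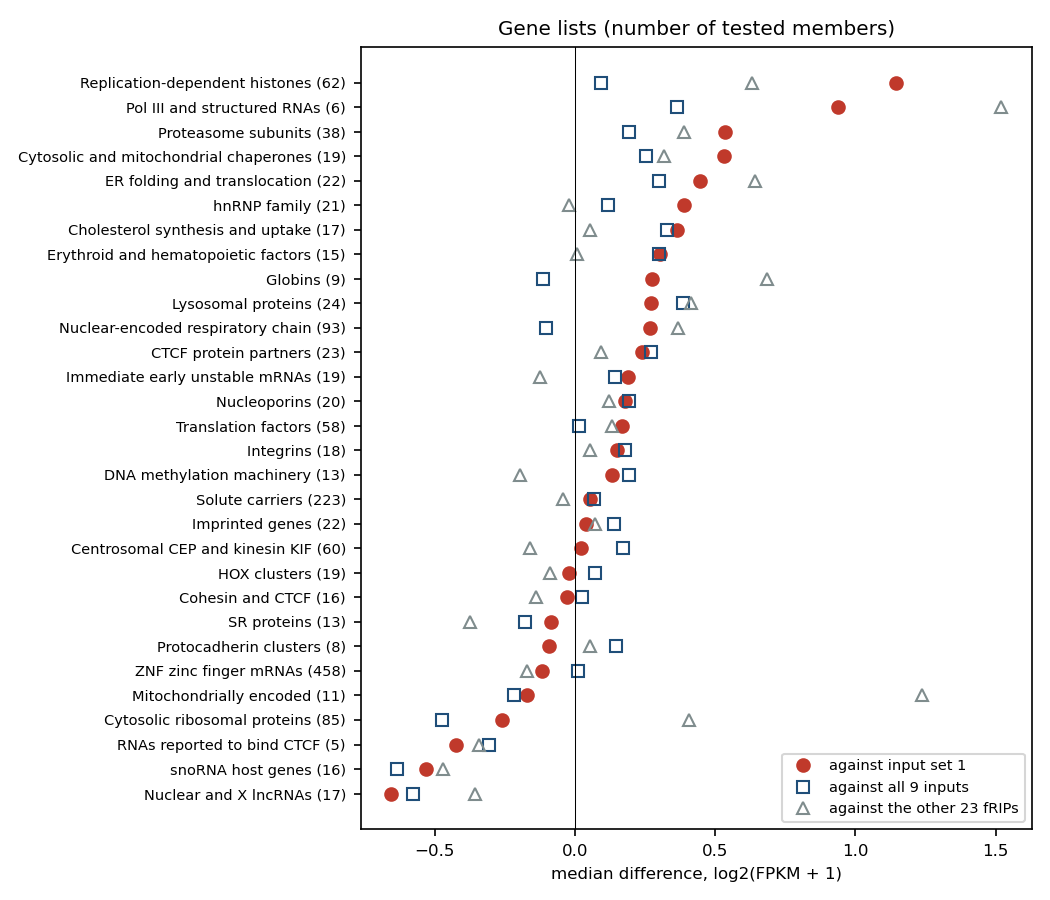
Median difference of each gene list in log2(FPKM + 1), CTCF fRIP against input set 1 (red circles), against all 9 inputs (open squares) and against the other 23 fRIPs (triangles), with the number of tested members. Histones lie at 1.15 against set 1 and 0.09 against all 9, while snoRNA hosts and nuclear lncRNAs lie below -0.5 against both.

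Against STAG2 fRIP, 655 genes were called higher in CTCF (2.57%) and 403 lower (1.58%). Of the 102 higher and 357 lower calls against input set 1, only 41 and 52 were also called in the same direction against STAG2 fRIP. PKD1 differed by 1.55, DMPK by 1.52, PLXND1 by 1.60 and SCARNA2 by 2.52, while STYX differed by -1.51, YOD1 by -1.41 and RYBP by -1.17. PSMC2 (0.01), ENO1 (0.12) and PPIAP31 (0.07) had close to the same level in both fRIPs. Against the mean of the other 23 fRIPs, 181 genes were called higher (0.711%) and 91 lower (0.358%). Among the 102 higher and 357 lower calls against input set 1, 63 and 36 were also called in that comparison. PKD1 differed from that mean by 1.26, HIST1H1C by 1.26 and TPP1 by 1.96, and STYX, ZNF121 and YOD1 by -1.27, -1.22 and -1.20. This mean hides single proteins beyond CTCF: PKD1 was higher in 3 of the other fRIPs and HIST1H1C in DNMT1 and PCAF fRIP, and ZNF121 and YOD1 were lower in DNMT1 and SUZ12 fRIP. The snoRNA host SNHG5 differed by -0.35 (adjusted p = 0.109, limma), which missed the threshold.

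By class, the CTCF libraries put 4.66% ± 0.72 (SD, n = 3) of their summed FPKM on lncRNA genes, against 6.51% ± 0.35 in input set 1 and 5.96% ± 0.55 over the 9 inputs. All 3 CTCF libraries were below all 3 of set 1, where an exact two-sided permutation test cannot give less than the p = 0.1 it gave; against all 9 inputs the exact p was 0.00909. Pseudogenes took 2.41% ± 0.20 against 3.45% ± 0.16. The lncRNA and pseudogene shares were compared with input only, not with other fRIPs. Isoforms annotated for nonsense-mediated decay took 4.66% ± 0.02 against 4.14% ± 0.02, and were above all 9 inputs (exact permutation p = 0.00455, the smallest possible). The input sets differed among themselves, with means of 4.14%, 4.09% and 4.46% for this share in sets 1, 2 and 3. The exact p values over 9 inputs treat libraries of 1 set as independent, so they do not measure the spread between sets. Coding isoforms took 57.8% ± 0.57 against 53.5% ± 0.34 in set 1, but 57.6% ± 3.63 over the 9 inputs. Retained-intron isoforms took 8.83% ± 0.87 against 9.89% ± 0.54 in set 1, which overlapped, and 8.24% ± 1.28 over all 9. Their difference of -1.05 percentage points from set 1 was -0.60 without CTCF library 3.

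Isoforms changed more often than genes. Of 104506 isoforms 2221 were called higher (2.13%) and 1542 lower (1.48%). The balance depended on the pseudocount, since 0.1 FPKM gave 1452 higher and 2152 lower. Coding isoforms had 1344 higher and 602 lower of 42461, and those for nonsense-mediated decay 207 higher and 61 lower of 8351. Retained introns had 165 higher and 338 lower of 19390, but their direction turned among calls also made against all 9 inputs, which were 132 higher and 74 lower. For coding isoforms these were 1014 higher and 354 lower, and for nonsense-mediated decay 155 and 34. Over all isoforms such calls were 1709 higher and 664 lower, so the shift to higher calls was not particular to retained introns. Of 3352 called isoforms in matched genes only 365 belonged to a called gene, and 312 genes had both a higher and a lower isoform. In these 312 genes the higher isoform was richer in GC in 284 and shorter in 231, with median lengths of 1904 and 4202 bases and a median GC of 45.2% and 38.9%. HNRNPK, an hnRNP, and PTBP1, a splicing repressor, each had an isoform that fell from 36.9 to 0.97 and from 26.3 to 0.34 FPKM, while their genes differed by 0.57 and 0.83. Isoform levels are estimates that split shared reads between transcripts, and how far base composition along a gene moves that split was not tested.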

How the data were processed

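fRIP-seq and input libraries of formaldehyde-fixed K562 cells were sequenced as short read pairs after rRNA removal with a kit that does not mark strand. The authors aligned reads to hg19 with TopHat and deposited FPKM per gene and isoform of GENCODE version 18, computed with Cuffdiff 2; the authors' own test results were not used. Their pooled FPKM for CTCF against input served only to find the nearest input set. No column of per-sample values was left unused. Samples were grouped by their labels; the second STAG2 column carries no matching replicate number.

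A gene or isoform entered the fit when 2 or more libraries gave it 1 FPKM or more. log2(FPKM + 1) was fitted over all 79 libraries with limma 3.58.1 (R 4.3.3, trended variance), 1 mean per group, and tested on simulated data. A call asked for over 2-fold change and an adjusted p below 0.05. Annotation came from GENCODE version 44 on GRCh37, matched by identifier (46055 genes and 172143 isoforms). Shares of 25-base words, either strand, came from its transcripts. Depth is approximate: with that many fragments, 88.0% to 91.4% of low values of single-isoform genes fell within 0.15 of a whole fragment, and intervals from it would cover counting error only.

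Members and lists were chosen with earlier results of these data known. Named genes were CTCF, all measured cohesin and partner RNAs, the called genes with the largest change beyond all 9 inputs at 5 FPKM or more (12 mRNAs each way, up to 8 and 5 lncRNAs, 3 of other classes), the 8 mRNAs each way that differ most from the other 23 fRIPs, and up to 4 called members, or else the 2 most abundant, of each list. MALAT1, NEAT1, LCP1, ACTN4, LMNA, ENO1, TGM2, EHD2, HIST1H4C, MIR663A, LINC00273 and the HNRNPK and PTBP1 isoforms were named after their values were seen. A few genes are not reported here. Alternatives were other pseudocounts, filters, centring, other inputs, a replicate block and leaving out each library.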

Additional observations from a re-analysis of the deposited data

Results flagged for a closer look

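Of 119 mRNAs called higher and 47 called lower in CTCF fRIP than in the mean of the other 23 fRIPs by limma, 16 are given here. They are the 8 each way with the largest such difference among those also called in the same direction against input set 1 and at 5 FPKM or more in the higher group, so they were chosen by the difference that is printed and their values are a description. The higher ones were ANKRD30BL (2.87 on the log2 scale), ARHGAP19-SLIT1 (2.08), TPP1 (1.96), RP11-343C2.9 (1.81), RP11-512M8.5 (1.53), HIST1H1B (1.43), CHURC1-FNTB (1.43) and HIST1H1E (1.43). The lower ones were AC090186.1 (-1.30), STYX (-1.27), NECAB1 (-1.24), NUDT4 (-1.23), ZNF121 (-1.22), YOD1 (-1.20), RYBP (-1.19) and TWF1 (-1.10). A difference from the mean does not set CTCF apart from each protein. CTCF had the highest mean of the 24 for TPP1 and the lowest for AC090186.1, STYX, RYBP and TWF1. For the other higher mRNAs CTCF was number 2 or 3: CHD1 fRIP read 110 against 100 FPKM for ANKRD30BL, SUZ12 fRIP 30.9 against 15.2 FPKM for ARHGAP19-SLIT1, DNMT1 fRIP 22.1 against 5.61 FPKM for CHURC1-FNTB and PCAF fRIP 1182 against 793 FPKM for HIST1H1E. For NECAB1, NUDT4, ZNF121 and YOD1 CTCF was number 22, with SUZ12 fRIP lower in each, at 1.62 against 2.26 FPKM for NECAB1. No group of samples had the 4 members that a test for outlying libraries needs.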

How the results depend on the processing

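Of 102 higher and 357 lower genes against input set 1, a pseudocount of 0.1 FPKM gave 547 lower, centring gave 417 higher and 98 lower, all 9 inputs gave 202 lower, and input sets 2 and 3 alone gave 258 and 254 higher. Leaving out 1 library gave 87 to 161 higher and 290 to 458 lower, the highest higher count without CTCF library 2. Same-numbered CTCF and input deviations correlated at 0.26, -0.04 and 0.13 for numbers 1, 2 and 3, against at most -0.14, 0.03 and 0.16 with other numbers, so number 1 alone correlated best with its own number and the numbers were not taken as pairs: a replicate block over all libraries gave 107 higher and 377 lower and kept every call, and a block with only the 6 libraries gave 0 higher and 2 lower. Against STAG2, a pseudocount of 0.1 gave 1317 higher (main count 655), the block gave 988 lower (403), and leaving out a CTCF library gave 548 to 759 higher and 332 to 433 lower. Against the other 23 fRIPs, 0.1 gave 492 higher and 240 lower (181 and 91), and leaving out a library gave 127 to 288 higher and 64 to 159 lower, the top values without CTCF library 3. Higher isoforms fell from 2221 to 1452 at a pseudocount of 0.1. Called histones numbered 35, 0 with all 9 inputs, set 2 alone, set 3 alone or the block of 6 libraries, and 20 to 37 without 1 library, the lowest without CTCF library 3. The rho of GC was 0.33 and that of AUUUA -0.25 in CTCF library 3 alone, and AUUUA gave -0.44 over mRNAs of at least 5 FPKM. With all 9 inputs the retained-intron share differed by 0.60 in place of -1.05 percentage points. The shares for nonsense-mediated decay (0.43), lncRNA (-1.30) and pseudogenes (-0.59) then had an exact permutation p under 0.05, which does not measure the spread between input sets. With sets 2 and 3 alone, differences turned negative for TERC (-0.10 and -0.31), HIST2H2AB (-0.079 and -0.57), HIST1H3F (-0.14 and -0.40), HIST1H4C (-0.21 and -0.57), MIR663A (-1.30 and -0.073) and LINC00273 (-0.75 and -0.53), and with set 3 alone for HIST1H4J (-0.95) and HIST2H2AC (-0.60). The causes were not tested.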
